A study of Homo sapiens with 6 samples.

Results

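AP-1 and EGR immediate-early transcription factors were measured in 3 near isogenic human cell lines on 6 arrays, 2 biological replicates per cell line. The genes were chosen by name as FOS, FOSB, FOSL1, FOSL2, JUN, JUNB, JUND, EGR1, EGR2 and EGR3, and each was read from the probe set that carries its symbol alone and has the highest mean signal over the 6 arrays. Of these 10 genes, 9 were measured among 18417 genes in all, and each of the 9 had 1 such probe set. The probe annotation used here lists none for EGR2, which was not analysed here. BJELM cells derive from BJEL cells and carry a retroviral fusion of MYC with an estrogen receptor domain (MYC-ER), and they were grown with G-418, hygromycin, puromycin and, continuously, 4-hydroxytamoxifen, which keeps the fusion active. BJEL cells derive from BJ and carry hTERT, the catalytic part of telomerase, with the SV40 early region, which encodes the large T and small t antigens, and they were grown with G-418 and hygromycin. BJ cells are primary foreskin fibroblasts that received neither the transgenes nor these drugs. All 3 were kept in DMEM/M199 with heat-inactivated fetal calf serum and gentamicin, so every cell line was grown in serum. The other drugs were given only to the cell lines with the introduced genes, so their effects cannot be told apart from those of the genes.

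Values are log2 probe set signals, so a difference of 1 is a 2-fold change, and the number of arrays limits their precision. Array medians lay between 6.37 and 6.46, and the Pearson correlation across genes was 0.992 to 0.995 within and 0.943 to 0.981 between cell lines. TERT had signals of 10.84 and 10.78 on the arrays labelled BJELM and 10.71 and 10.97 on the BJEL arrays, against 7.77 and 7.88 on the BJ arrays. MYC had signals of 9.57 and 8.90 on the arrays labelled BJELM, against 10.22 and 10.12 in BJEL and 9.47 and 9.61 in BJ. MYC was thus not higher on the arrays labelled BJELM than in BJEL or BJ. How far its probes read the MYC-ER transcript was not tested, and each direction given below for BJELM is one of the arrays labelled so. Of 18 fibroblast markers, 16 lay at or above the median of all genes' mean signals, 7.26, as did 3 of 9 epithelial, 1 of 7 leukocyte, 1 of 6 melanocyte and 0 of 8 endothelial markers. The mean fibroblast marker signal was 8.86 and 9.31 on the arrays labelled BJELM and 9.23 and 9.30 in BJEL, against 10.83 and 11.01 in BJ.

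AP-1 is a family of dimers that basic leucine zipper proteins form. JUN proteins pair with each other or with FOS proteins, FOS proteins need a JUN partner, and the dimers bind the AP-1 site or the related cyclic AMP response element (CRE). EGR proteins are zinc finger factors that bind a GC-rich site. Serum and growth factors switch many of these genes on within minutes and without new protein synthesis, through MAP kinases and serum response factor (SRF), which binds CArG boxes, and in fibroblasts this response has been a textbook model.

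The promoter sequences of the genes whose signal fell, EGR1 and JUNB, and of FOSL2, whose difference lay just under the fold minimum, are shown. The members differ in the motifs held within the windows searched. Each is the run of 250 bases before the RefSeq gene start in GRCh38.p14, 5′ to 3′ on the plus strand, and capitals mark matches to an EGR site or a CArG box.
EGR1, chr5:138465229-138465478: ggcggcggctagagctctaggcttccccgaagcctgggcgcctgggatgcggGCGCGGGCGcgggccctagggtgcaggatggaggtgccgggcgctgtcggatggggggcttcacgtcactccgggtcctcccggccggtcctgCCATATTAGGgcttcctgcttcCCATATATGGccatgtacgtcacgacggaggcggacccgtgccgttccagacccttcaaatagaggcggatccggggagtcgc
JUNB, chr19:12791236-12791485: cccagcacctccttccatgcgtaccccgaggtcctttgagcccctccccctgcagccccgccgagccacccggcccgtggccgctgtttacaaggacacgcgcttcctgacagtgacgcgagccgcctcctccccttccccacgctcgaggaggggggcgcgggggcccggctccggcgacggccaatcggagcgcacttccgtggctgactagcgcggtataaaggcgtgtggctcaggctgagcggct
FOSL2, chr2:28392608-28392857: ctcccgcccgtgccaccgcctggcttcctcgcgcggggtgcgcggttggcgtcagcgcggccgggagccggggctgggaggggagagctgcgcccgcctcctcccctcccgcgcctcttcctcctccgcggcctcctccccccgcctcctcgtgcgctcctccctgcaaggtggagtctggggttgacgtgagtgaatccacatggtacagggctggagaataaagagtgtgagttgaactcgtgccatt
Windows from 250 bases before to 50 bases after the start were held for 7 members, FOS, FOSB, FOSL2, JUN, JUNB, JUND and EGR1, and were searched on both strands. The motifs were the AP-1 site TGANTCA, the CRE TGACGTCA, the EGR site GCGNGGGCG, the E-box CACGTG, which MYC dimers bind, and the CArG box. EGR1 held an EGR site at -198 to -190 and CArG boxes at -105 to -96 and -83 to -74 from its start. JUND held a CRE at -200 to -193, and FOSL2 an AP-1 site at 5 to 11 after its start. No match overlapped another, and 0 of the 7 windows held an E-box. Over 35116 promoter windows of the same length, 7.71% held the AP-1 site, 1.85% the CRE, 9.43% the EGR site, 7.26% the E-box and 1.29% a CArG box. A match is a description of letters, not a measured binding site. Bases outside these windows were not searched, so a member without a match here may hold the motif elsewhere.

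**Figure D1:**
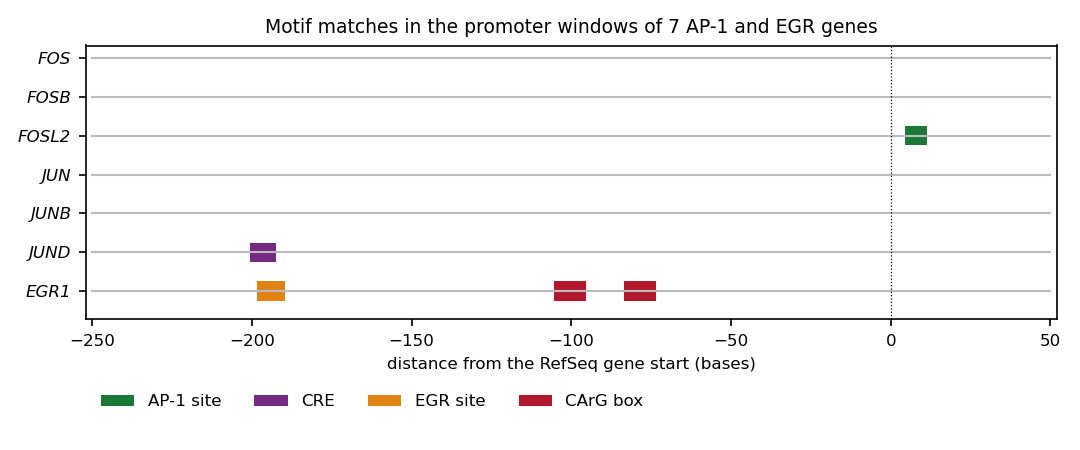
Motif matches in the promoter windows of 7 members, with the distance from the RefSeq gene start in bases on the horizontal axis, 1 line per gene and colored boxes for the matches. EGR1 holds 3 matches, JUND and FOSL2 hold 1 each, and the other 4 windows hold none of the motifs searched.

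The FOS proteins did not follow 1 pattern across the 3 cell lines. FOS, the founding member and a serum response gene, had signals of 6.72 and 7.10 on the arrays labelled BJELM, against 7.01 and 6.87 in BJEL and 7.65 and 7.34 in BJ. The arrays labelled BJELM overlapped the BJEL arrays, and all 4 lay below both BJ arrays. FOSB, a close relative of FOS, had signals of 6.92 and 6.99 on the arrays labelled BJELM, against 6.71 and 6.93 in BJEL and 6.94 and 6.90 in BJ. Its 3 cell lines overlapped. FOSL1 encodes FRA1, which lacks the strong activation domain of FOS, and had signals of 10.36 and 10.52 on the arrays labelled BJELM, against 10.80 and 10.85 in BJEL and 10.32 and 10.44 in BJ. Both BJEL arrays lay above the other 4, which overlapped. FOSL2, which encodes the related FRA2, had signals of 9.91 and 9.64 on the arrays labelled BJELM, against 10.78 and 10.65 in BJEL and 10.34 and 10.38 in BJ. Its cell lines did not overlap, with BJEL highest and the arrays labelled BJELM lowest.

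The JUN proteins also differed in order. JUN, the main partner of FOS and a strong activator, had signals of 9.70 and 9.81 on the arrays labelled BJELM, against 10.30 and 9.90 in BJEL and 9.56 and 9.23 in BJ. Its order was BJEL, the arrays labelled BJELM and then BJ, without overlap. JUNB, a weaker activator that can counteract JUN, had signals of 8.92 and 8.66 on the arrays labelled BJELM, against 9.32 and 8.99 in BJEL and 10.01 and 9.62 in BJ. Its BJ arrays were the highest of the 6, where JUN had its lowest, and no 2 cell lines overlapped. JUND, known for steady expression in resting cells, had signals of 8.82 and 8.59 on the arrays labelled BJELM, against 9.09 and 8.69 in BJEL and 9.15 and 8.91 in BJ. The arrays labelled BJELM lay below the BJ arrays, and BJEL overlapped both.

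EGR1, a zinc finger factor that serum induces strongly in fibroblasts, had signals of 9.87 and 9.97 on the arrays labelled BJELM, against 11.49 and 11.11 in BJEL and 11.25 and 10.80 in BJ. The arrays labelled BJELM stood apart from the other 4, and BJEL overlapped BJ. EGR3, a relative of EGR1, had signals of 6.18 and 6.26 on the arrays labelled BJELM, against 6.16 and 6.22 in BJEL and 6.52 and 6.20 in BJ. BJ replicate 1 was higher than the other 5 arrays, among which the cell lines overlapped. FOS, FOSB and EGR3 had means over the 6 arrays under 7.26, the median of all genes. Detection calls were not used here, so whether these 3 probe sets stood above background is unknown.

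**Figure D2:**
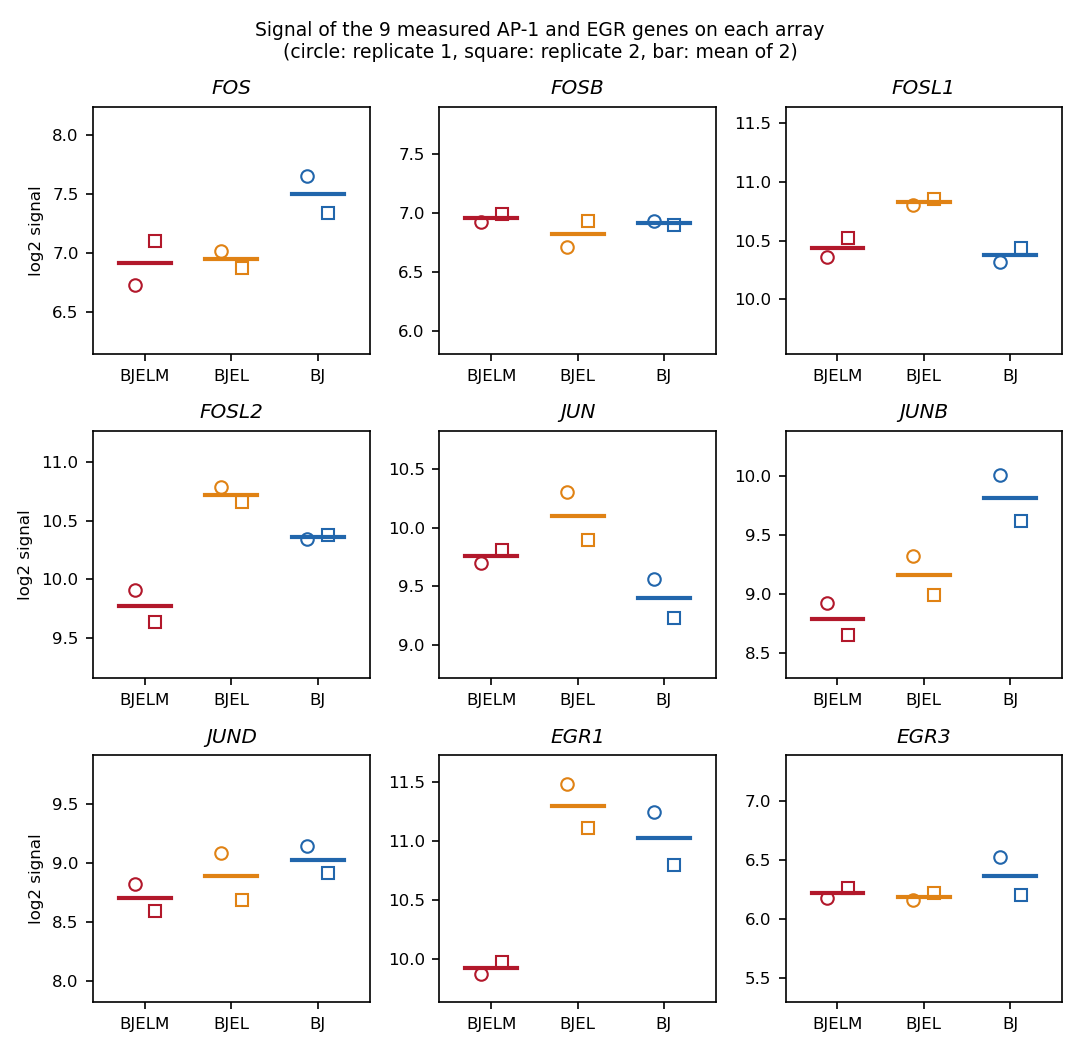
Log2 signal (vertical axis) of the 9 measured members on each array, by cell line (horizontal axis), with a circle for replicate 1, a square for replicate 2 and a bar for the mean of 2 arrays. EGR1 stands between 9.87 and 9.97 on the arrays labelled BJELM and between 10.80 and 11.49 on the other arrays, while JUNB is highest in BJ and FOSL1 in BJEL.

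The first comparison set the arrays labelled BJELM against BJ, the whole way through the model. EGR1 and JUNB fell, each by a little more than 2-fold. FOSL2 and FOS were also lower with smaller differences, and JUN alone stood higher without overlap. The words rose and fell are kept for genes with a Benjamini-Hochberg adjusted p under 0.05 over all genes, from limma's two-sided test, together with at least a 2-fold change. The values are log2 differences ± SE with n = 2 arrays per cell line. EGR1 fell by 1.10 ± 0.19, which is 2.14-fold lower (95% interval -1.55 to -0.65, adjusted p = 0.00696). JUNB fell by 1.03 ± 0.18, which is 2.04-fold lower (interval -1.47 to -0.58, adjusted p = 0.00828). Both sat close to the fold minimum. Without BJ replicate 1 the difference was -0.88 for EGR1 (adjusted p = 0.0335) and -0.83 for JUNB (adjusted p = 0.0453), and without BJELM replicate 2 it was -0.89 for JUNB (adjusted p = 0.0385), all under 2-fold. Called members were therefore 2 of 9, and 0 without BJ replicate 1 or 1 without BJELM replicate 2, where 8.79% of all genes were called. Over all genes 4.70% fell and 4.09% rose. The methods' t-test, run here in the plain form for unequal variances and not as modified by the study, called 0 of 9 members in this comparison, with an unadjusted p of 0.114 for EGR1 and 0.0617 for JUNB.

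FOSL2 had a difference of -0.59 ± 0.12 from BJ (adjusted p = 0.0123) and FOS one of -0.58 ± 0.16 (adjusted p = 0.0423), both past the p threshold and under the fold minimum. Over the 6 ways of leaving out 1 array the adjusted p ran between 0.00966 and 0.0625 for FOSL2 and between 0.0252 and 0.211 for FOS. By p alone 4 of 9 members passed, all of them lower, against 28.2% of all genes, 13.1% lower and 15.1% higher, and 4 of 9 had an unadjusted p under 0.05, against 37.3% of all genes. JUN was 0.36 ± 0.17 higher than in BJ without passing the test (interval -0.060 to 0.77, adjusted p = 0.196). Its paralog JUND had a difference of -0.32 ± 0.17 (interval -0.72 to 0.081, adjusted p = 0.227). FOSL1 (0.065, interval -0.17 to 0.30), FOSB (0.036, interval -0.21 to 0.28) and EGR3 (-0.14, interval -0.44 to 0.16) had intervals that include 0 and stop short of a 2-fold change. Groups did not overlap for 6 of 9 members, 5 lower and 1 higher, where 60.5% of all genes did not overlap, 28.8% lower and 31.7% higher. The median difference of the members was -0.32, beside 0.011 over all genes.

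The second comparison set the arrays labelled BJELM against BJEL, the step at which MYC-ER was added. EGR1 fell here too, FOSL2 came close to the fold minimum, and no member stood higher without overlap. This comparison shares the BJELM arrays with the first one, so the 2 sets of values are not independent. EGR1 fell by 1.37 ± 0.19, which is 2.59-fold lower (interval -1.83 to -0.92, adjusted p = 0.00969). Without BJEL replicate 1, which had the highest EGR1 signal of the series, the difference was -1.19 and no longer past the test (adjusted p = 0.0571). FOSL2 had a difference of -0.95 ± 0.12, which is 1.93-fold lower (interval -1.23 to -0.66, adjusted p = 0.00746). It passed the 2-fold minimum without BJEL replicate 2 (-1.01, adjusted p = 0.0344) and without BJELM replicate 1 (-1.08, adjusted p = 0.0113). Called members were thus 1 of 9, where 2.68% of all genes were called (1.76% fell and 0.923% rose), and the count was 0 without BJEL replicate 1 and 2 without BJEL replicate 2 or BJELM replicate 1. By p alone 2 of 9 members passed, both lower, against 10.8% of all genes, 6.28% lower and 4.53% higher, and 3 of 9 had an unadjusted p under 0.05, against 25.4% of all genes. The methods' t-test called 0 of 9, with an unadjusted p of 0.0702 for EGR1.

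The other AP-1 genes moved less at this step. FOSL1 had a difference of -0.39 ± 0.097 (interval -0.62 to -0.15, adjusted p = 0.0573). JUNB (-0.37 ± 0.18, adjusted p = 0.276) and JUN (-0.35 ± 0.17, adjusted p = 0.277) had like values, with intervals of -0.81 to 0.073 and -0.76 to 0.069. These 3 did not overlap between the groups, yet did not pass the test. JUND stood at -0.18 (interval -0.58 to 0.22), FOSB at 0.13 (interval -0.11 to 0.38), FOS at -0.032 (interval -0.43 to 0.37) and EGR3 at 0.033 (interval -0.27 to 0.33). Non-overlapping members were 5 of 9, all lower, where 52.8% of all genes did not overlap and 24.0% were lower. The members' median was -0.35, beside 0.029 over all genes.

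The third comparison set BJEL against BJ, the step at which hTERT and the SV40 early region were added. No member rose or fell here, and the JUN and FOS families each held members on both sides of 0. JUN and FOSL1 were higher and FOS and JUNB lower without overlap. The comparison shares the BJ arrays with the first and the BJEL arrays with the second. JUN had a difference of 0.70 ± 0.17, or 1.63-fold (interval 0.29 to 1.12, adjusted p = 0.0386), and FOSL1 one of 0.45 ± 0.097, or 1.37-fold (interval 0.22 to 0.69, adjusted p = 0.0257). Both passed by p alone, where 17.5% of all genes did, 10.4% higher and 7.13% lower. Over the 6 ways of leaving out 1 array the adjusted p ran between 0.0372 and 0.168 for JUN and between 0.0274 and 0.153 for FOSL1. FOSL2, also higher without overlap, had a difference of 0.36 ± 0.12 (interval 0.076 to 0.64, adjusted p = 0.0898).

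JUNB had a difference of -0.66 ± 0.18 in BJEL (interval -1.10 to -0.21, adjusted p = 0.0578) and FOS one of -0.55 ± 0.16 (interval -0.95 to -0.15, adjusted p = 0.0702). Neither passed the test, and the interval of JUNB reaches beyond 2-fold. EGR1 stood at 0.28 ± 0.19 (interval -0.18 to 0.73, adjusted p = 0.385). Its difference was thus not detectable with 2 arrays a side. EGR3 (-0.17, interval -0.47 to 0.13), JUND (-0.14, interval -0.54 to 0.26) and FOSB (-0.099, interval -0.35 to 0.15) also had intervals that include 0. With limma 0 of 9 members were called, where 5.18% of all genes were (2.89% rose and 2.29% fell), while 5 members had an unadjusted p under 0.05, against 30.6% of all genes, and the methods' t-test called 0 with or without adjustment. Non-overlapping members were 5 of 9, 3 higher and 2 lower, where 61.2% of all genes did not overlap, 29.2% higher and 32.0% lower. The median was -0.099, beside -0.017 over all genes.

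**Figure D3:**
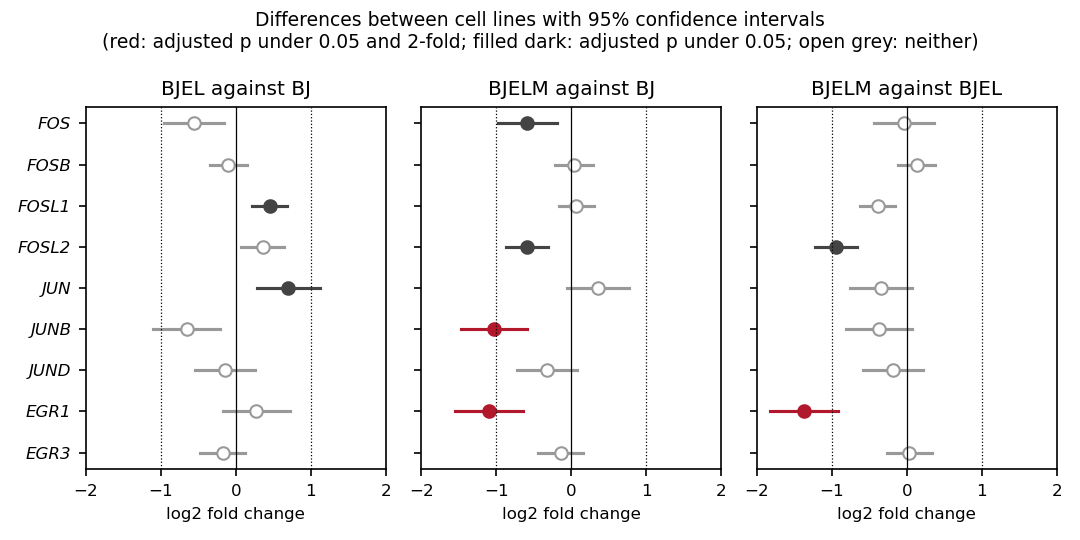
Log2 fold change (horizontal axis) of each measured member (vertical axis) in the 3 comparisons, where points are limma estimates, lines are 95% confidence intervals and dotted lines mark 2-fold. EGR1 lies at -1.10 and -1.37 on the arrays labelled BJELM against BJ and BJEL, JUNB at -1.03 against BJ, and no member is past both thresholds in BJEL against BJ.

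The 2 arrays of a cell line differed more for some of these genes than for most genes. EGR1 was 0.45 higher on replicate 1 than on replicate 2 in BJ and 0.38 higher in BJEL. That gap was larger than for 95.7% of all genes in BJ and for 92.6% in BJEL. On the arrays labelled BJELM the gap of EGR1 was -0.10, larger in size than for 38.4% of genes. JUN was 0.41 higher on replicate 1 in BJEL and 0.33 higher in BJ, and JUNB was 0.33 higher in BJEL and 0.39 higher in BJ. FOS, JUN, JUNB, JUND and EGR1, 5 of the 9 members, were higher on replicate 1 in both BJEL and BJ. In all, replicate 1 was the higher for 3 of 9 members on the arrays labelled BJELM, 6 of 9 in BJEL and 7 of 9 in BJ, where the share over all genes was 57.9%, 51.7% and 58.3%. For 33 other immediate-early genes the counts were 22, 24 and 25. FOS ran the other way on the arrays labelled BJELM, with replicate 1 lower by 0.37. What set these gaps was not tested, and no treatment time or batch is named in the sources used here.

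**Figure D4:**
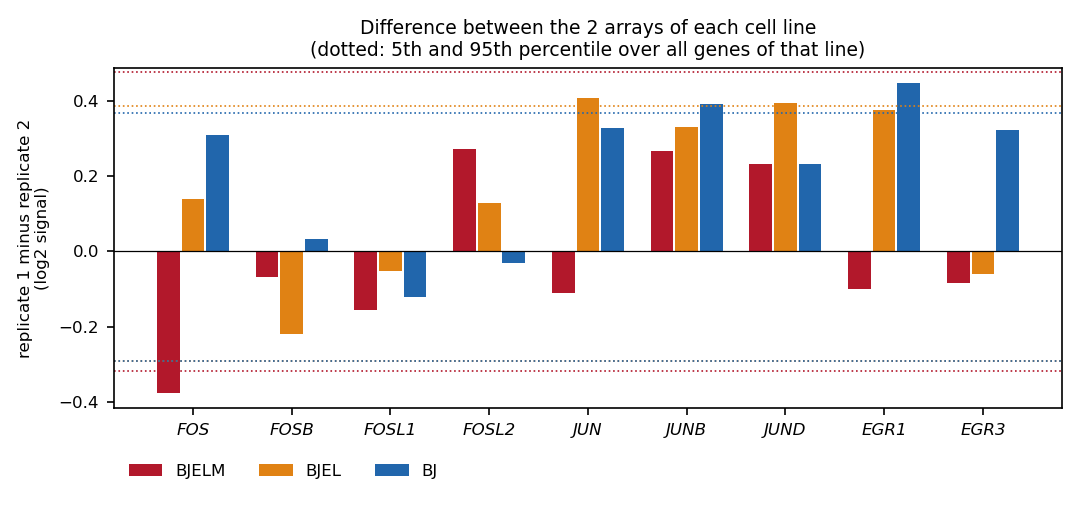
Replicate 1 minus replicate 2 in log2 signal (vertical axis) for each measured member (horizontal axis), with bars colored by cell line and dotted lines at the 5th and 95th percentile of all genes in that cell line. EGR1 reaches 0.45 in BJ and 0.38 in BJEL, while FOS is at -0.37 on the arrays labelled BJELM.

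Across the 6 arrays the signal of EGR1 ran closest to that of FOSL2 among the members, with a Pearson r of 0.92, and JUNB ran closest to JUND (0.86) and FOS (0.82). JUN ran closest to FOSL1 (0.73). Each r describes 6 arrays that fall into 3 cell lines and share their replicate gaps. Among 9203 other genes at or above the median level, those most like EGR1 were PRR12 (r = 0.995), TMEM132A (0.993) and ZNF618 (0.991), and 95 genes had an r over 0.95. An r does not measure size. PRR12 had signals of 8.83 and 8.85 on the arrays labelled BJELM, against 9.04 and 8.99 in BJEL and 9.02 and 8.97 in BJ. Its range was much narrower than that of EGR1. Those most like JUNB were DGKA (0.998), DPP7 (0.997) and PHLDA3 (0.997), and 391 genes had an r over 0.95. DGKA, a diacylglycerol kinase, had signals of 8.70 and 8.28 on the arrays labelled BJELM, against 9.24 and 8.80 in BJEL and 10.16 and 9.72 in BJ, the order that JUNB showed.

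Of 19 measured basic leucine zipper partners 2 were called on the arrays labelled BJELM against BJ, 1 against BJEL and 1 in BJEL against BJ, beside the 8.79%, 2.68% and 5.18% of all genes. Of these partners CREB5, which binds CRE sites, rose by 2.30 ± 0.12 on the arrays labelled BJELM (adjusted p = 0.000202) and by 2.10 ± 0.12 in BJEL (adjusted p = 0.000624), each against BJ. BATF3, which dimerizes with JUN proteins, rose by 1.60 ± 0.12 on the arrays labelled BJELM against BJ (adjusted p = 0.000536) and by 1.29 ± 0.12 against BJEL (adjusted p = 0.00422). No other partner was called with all 6 arrays. Leaving out a single array added calls in every comparison. In BJEL against BJ this was a rise without BJEL replicate 2. On the arrays labelled BJELM against BJ it was a fall without BJELM replicate 1 and a rise without BJELM replicate 2. Against BJEL it was a fall without BJEL replicate 2 or BJELM replicate 1. NAB2, an EGR1 target that in turn represses EGR1 activity, had signals of 8.21 and 8.07 on the arrays labelled BJELM, against 8.59 and 8.65 in BJEL and 9.14 and 8.96 in BJ. It passed by p alone in each comparison, at -0.91 ± 0.10 for BJELM against BJ (adjusted p = 0.00161), -0.48 ± 0.10 against BJEL (adjusted p = 0.0362) and -0.43 ± 0.10 in BJEL against BJ (adjusted p = 0.0356). The second was lost in each of the 6 ways of leaving out 1 array (adjusted p = 0.0546 to 0.149), and the third without any 1 of the 4 BJEL and BJ arrays (0.0637 to 0.195). With limma or the methods' t-test 0 of 4 genes of this list, which adds NAB1, EGR4 and WT1, were called in any comparison. For BJELM against BJ, BJELM against BJEL and BJEL against BJ, 1, 1 and 2 of them had an unadjusted p under 0.05. Over all genes the shares were 37.3%, 25.4% and 30.6% in that order. MYOCD, a coactivator of SRF, fell by 3.32 ± 0.43 on the arrays labelled BJELM against BJ (adjusted p = 0.00261) and by 2.49 ± 0.43 in BJEL (adjusted p = 0.0125), the second not held without BJ replicate 1, BJEL replicate 1 or BJEL replicate 2 (adjusted p = 0.0737, 0.0594 and 0.0669). FHL2, an SRF cofactor that FOS and JUN proteins also bind, fell by 1.03 ± 0.099 on the arrays labelled BJELM against BJ (adjusted p = 0.00102), and was under 2-fold without BJ replicate 1 (-0.96) or BJELM replicate 2 (-0.95). The other 5 of 7 SRF regulators were not called in any comparison. Against BJEL 0 of the 7 were called by limma or by the methods' t-test. There 2 had an unadjusted p under 0.05, against 25.4% of all genes, MYOCD at -0.83 ± 0.43 not among them.

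Of 21 measured MAP kinases, activators and effectors, which carry growth signals to these genes, 3 were called on the arrays labelled BJELM against BJ. In BJEL against BJ 1 was called, and on the arrays labelled BJELM against BJEL 0. Over all genes the shares called were 8.79%, 5.18% and 2.68% in that order. Against BJEL the methods' t-test called 0 and 5 had an unadjusted p under 0.05, against 25.4% of all genes, MAPK12 among them at 0.69 ± 0.20. Leaving out a single array added a rise in BJEL against BJ (without BJEL replicate 2). It also added a fall on the arrays labelled BJELM against BJ (without BJ replicate 2 or BJELM replicate 1). RPS6KA2, a ribosomal S6 kinase, fell by 1.58 ± 0.23 in BJEL (adjusted p = 0.0067, and 0.0509 without BJEL replicate 1) and by 1.87 ± 0.23 on the arrays labelled BJELM (adjusted p = 0.0021), each against BJ. Against BJ, the arrays labelled BJELM also had higher RPS6KA1, of the same kinase family, which rose by 1.20 ± 0.18 (adjusted p = 0.00464) and the related RPS6KA5, which rose by 1.08 ± 0.11 (adjusted p = 0.00108), both under 2-fold without BJELM replicate 1 (0.98 each). RPS6KA5 had signals of 6.57 and 6.36 on the arrays labelled BJELM, against 5.33 and 5.43 in BJ. All lie under 7.26, the median of all genes, and whether they stood above background is unknown.

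Of 33 other immediate-early genes 11 fell and 0 rose on the arrays labelled BJELM against BJ, with 9 to 11 falls when 1 array was left out. Over all genes 4.70% fell and 4.09% rose in that comparison. PTGS2, which encodes the inducible cyclooxygenase, fell by 4.37 ± 0.62 (adjusted p = 0.00376). DUSP1, a MAP kinase phosphatase, fell by 1.69 ± 0.37 (adjusted p = 0.0181, and 0.0905 without BJ replicate 1 or 0.0764 without BJELM replicate 2). ZFP36, which destabilizes short-lived mRNAs, fell by 1.48 ± 0.16 (adjusted p = 0.00142). In BJEL against BJ 5 fell and 1 rose, and the falls were PTGS2 (-3.47 ± 0.62, adjusted p = 0.0145, and 0.0881, 0.05 and 0.0618 without BJ replicate 1, BJ replicate 2 or BJEL replicate 2), NR4A3, an orphan nuclear receptor (-1.26 ± 0.081, adjusted p = 0.000734), ID3 (-1.20 ± 0.12, adjusted p = 0.00217), ID1 and TRIB1, the last under 2-fold without BJEL replicate 2 (-0.96). NR4A3 had signals of 5.85 and 5.80 in BJEL, against 7.06 and 7.12 in BJ, all under 7.26, the median of all genes. The single rise, of GEM, was not held without either BJ array or either BJEL array. Against BJEL 0 of 33 were called with limma or with the methods' t-test on the arrays labelled BJELM, 15 had an unadjusted p under 0.05, against 25.4% of all genes, and DUSP1 stood at -1.16 ± 0.37 (adjusted p = 0.112). Without BJELM replicate 1 the list held 1 fall there. The medians of this list were -0.32, -0.27 and -0.28 for BJELM against BJ, BJELM against BJEL and BJEL against BJ. Over all genes 2.29% fell and 2.89% rose in BJEL against BJ, and 1.76% and 0.923% on the arrays labelled BJELM against BJEL.

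Genes known as targets of AP-1 went both ways. MMP3, a matrix metalloproteinase with an AP-1 site in its promoter, had signals of 6.99 and 7.66 on the arrays labelled BJELM, against 8.92 and 9.34 in BJEL and 10.89 and 11.80 in BJ. It fell by 4.02 ± 0.35 on the arrays labelled BJELM against BJ (adjusted p = 0.000751), by 1.81 ± 0.35 against BJEL (adjusted p = 0.0282) and by 2.21 ± 0.35 in BJEL against BJ (adjusted p = 0.00993). The fall against BJEL was not held without BJEL replicate 1, BJEL replicate 2 or BJELM replicate 1 (adjusted p = 0.0968, 0.128 and 0.0832), nor was that in BJEL against BJ without BJEL replicate 1 (0.0678). CXCL8, the chemokine interleukin 8, had signals of 10.97 and 10.40 on the arrays labelled BJELM, against 8.35 and 8.45 in BJEL and 6.32 and 6.53 in BJ, the order opposite to MMP3. It rose by 4.26 ± 0.19 on the arrays labelled BJELM against BJ (adjusted p = 0.000123), by 2.28 ± 0.19 against BJEL (adjusted p = 0.00304) and by 1.98 ± 0.19 in BJEL against BJ (adjusted p = 0.00205). Of 23 measured targets 2 rose and 4 fell in each comparison with BJ, and 1 rose and 1 fell against BJEL. Over all genes 4.09% rose and 4.70% fell on the arrays labelled BJELM against BJ, and 2.89% and 2.29% in BJEL against BJ. Against BJEL 0.923% rose and 1.76% fell. HBEGF, a growth factor, was the other rise in both comparisons with BJ, and ITGA2, an integrin subunit, was among the falls in both. HBEGF rose by 1.03 ± 0.15 on the arrays labelled BJELM against BJ (adjusted p = 0.00375), and was under 2-fold without BJ replicate 2 (0.92) or BJELM replicate 1 (0.89).

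Of 13 measured EGR1 targets 5 fell and 0 rose on the arrays labelled BJELM against BJ, and 3 fell and 0 rose against BJEL. Over all genes 4.70% fell and 4.09% rose in the first of these, and 1.76% and 0.923% in the second. The list had a median of -0.76 against BJ and -0.082 against BJEL, where its values ran from -2.44 to 0.70. In BJEL against BJ the median was -0.44, and 2.29% of all genes fell and 2.89% rose. F3, tissue factor, had signals of 8.18 and 8.49 on the arrays labelled BJELM, against 10.63 and 10.55 in BJEL and 10.34 and 10.02 in BJ. Like EGR1 it was lower on the arrays labelled BJELM than on the other 4 arrays, by 1.85 ± 0.15 against BJ (adjusted p = 0.000612) and 2.25 ± 0.15 against BJEL (adjusted p = 0.00169). FLT1, a VEGF receptor, fell by 4.03 ± 0.15 against BJ (adjusted p = 8.37e-05) and by 2.14 ± 0.15 against BJEL (adjusted p = 0.00181). MT1F, a metallothionein, fell by 1.90 ± 0.17 against BJ (adjusted p = 0.000804) and by 1.02 ± 0.17 against BJEL (adjusted p = 0.0182). The second call was lost by p without BJEL replicate 1 (-1.11) and by size without BJELM replicate 1 (-0.81). Without BJEL replicate 2 (-0.92) it was lost by both. In BJEL against BJ 3 fell and 1 rose: FLT1 by 1.89 ± 0.15 (adjusted p = 0.00114), GDF15, a stress-induced cytokine, by 1.73 ± 0.35 (adjusted p = 0.0212, and 0.0737 to 0.111 without any 1 of the 4 BJEL and BJ arrays), and TGFB1. TNFSF10, which encodes the death ligand TRAIL, rose by 2.61 ± 0.64 (adjusted p = 0.0397, and 0.0553 to 0.157 without either BJ or either BJELM array), with signals of 8.13 and 5.90 in BJEL against 4.41 and 4.39 in BJ and a difference of 1.497 without BJEL replicate 1.

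Of 18 fibroblast markers 16 fell on the arrays labelled BJELM and 11 in BJEL, each against BJ. Over all genes 4.70% and 2.29% fell, and 2 and 0 of the 9 members were called. Against BJEL 1 of the 18 fell on the arrays labelled BJELM, where EGR1 was called, and the count was 0 without BJEL replicate 1 and 2 without BJELM replicate 1. Their part in the values of the AP-1 and EGR genes was not tested. In bulk RNA fewer cells of a kind and less RNA per cell cannot be told apart.

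**Figure D5:**
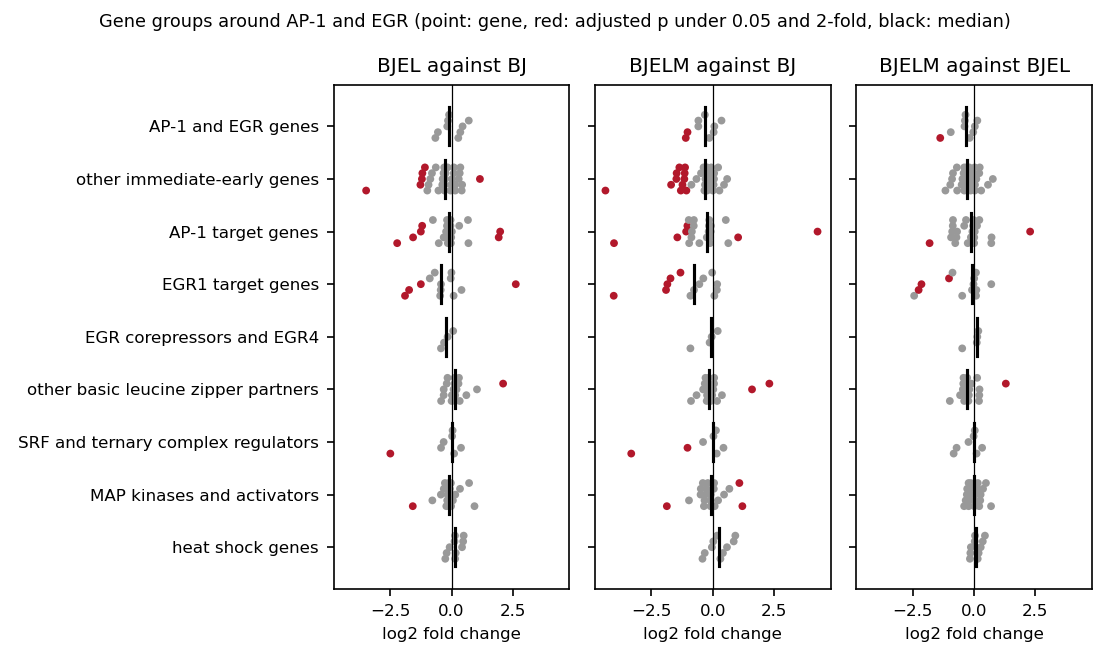
Log2 fold change (horizontal axis) of every measured gene in the AP-1 and EGR set and 8 related groups (vertical axis) in the 3 comparisons, where points are genes, red points are past both thresholds and black bars are medians. The other immediate-early genes hold 11 red points to the left on the arrays labelled BJELM against BJ, and the AP-1 and EGR set holds 2.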

How the data were processed

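RNA from 6 cultures was hybridized to Gene 1.0 ST arrays of Affymetrix, whose probes lie along whole transcripts. The deposited log2 signals were made by the authors with the RMA defaults of Expression Console 1.3.1, which corrects background, sets all arrays to 1 distribution and summarizes each probe set, so a shift common to most genes would not be seen. Of 33297 probe sets, 19460 carry 1 gene symbol and 1754 several, 12083 are not listed in the probe annotation, and 18417 genes remained, 18389 of them matched to RefSeq by Entrez ID. Arrays have no count depth.

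All 6 arrays entered 1 limma 3.58.1 fit in R 4.3.3 with a mean per cell line, 3 residual degrees of freedom and 3.13 prior degrees, tested two-sided and adjusted over all genes. On simulated data of 18417 genes, a true log2 change of 1.2 was called for 93% of changed genes when BJELM was set against BJ, 92% against BJEL, and 92% when BJEL was set against BJ. False calls were 1, 3 and 3 in that order. These rates are over all changed genes. EGR1 and JUNB had larger gaps between the BJ arrays than 95.7% and 93.5% of genes, so the rates do not give their own chance of a call. Members, and 14 lists of related genes with 210 entries, were chosen with earlier results of these data known. All members, TERT and MYC were named, as were up to 3 called genes per list and comparison with the largest change, or 1 where none was called, and the 3 genes most like each called member over the arrays. GEM, ID1, TRIB1 and TGFB1 were named after their values were seen. Several lists share genes (ATF3, MAFF, CCN1, TGFB1, NAB2 and VIM). Alternatives left out each array in turn, fitted only the groups compared, added the replicate block, or changed normalization, prior, filter, probe set rule, thresholds or test. For the lists, leaving out arrays was chosen after seeing the data. The study's chromatin data were not used.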

Additional observations from a re-analysis of the deposited data

How the results depend on the processing

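The values above rest on 2 arrays per cell line, so p-values measure only the spread between pairs of cultures, and 1 array can decide a call. Over the 6 ways of leaving out 1 array the called members ran between 0 and 0 for BJEL against BJ, between 0 and 2 for BJELM against BJ and between 0 and 2 for BJELM against BJEL, and the called genes of all genes between 718 and 1026, 1393 and 1782, and 347 and 599. Of 531 values of the single members under these alternatives, 500 kept their direction and their side of the threshold, 10 were past it under the alternative alone, 11 lost it and 10 turned sign. All 10 that turned were small and not called. EGR3 stood at 0.022 in BJELM against BJ without BJ replicate 1 (lowest -0.30 with 1 array left out), and at -0.0086 without BJELM replicate 2 or -0.0042 with quantile normalization in BJELM against BJEL (highest 0.075). FOS in BJELM against BJEL was 0.038 without BJEL replicate 1, 0.16 without BJELM replicate 1 and 0.0096 with median centring (lowest -0.22). JUND was 0.017 in BJELM against BJEL without BJEL replicate 1 (lowest -0.38) and 0.055 in BJEL against BJ without BJEL replicate 2 (lowest -0.34). FOSB was 0.010 in BJEL against BJ without BJEL replicate 1 (lowest -0.21), and FOSL1 was -0.012 in BJELM against BJ without BJELM replicate 2 (highest 0.14).

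With median centring 1 member was called in BJELM against BJ, since JUNB stood at -0.99 (adjusted p = 0.00452). With no fold minimum 2, 4 and 2 members and 3228, 5195 and 1992 genes were called (here and below in the order BJEL against BJ, then BJELM against BJ, then BJELM against BJEL), as follows from the rule. With a 1.5-fold minimum the genes were 2110, 3562 and 1345, and the members 1, 3 and 2. The methods' t-test, in plain form and not as modified there, called 465, 880 and 231 genes unadjusted and 0, 0 and 0 after Benjamini-Hochberg, and 0 members in either comparison of BJELM. The cause of the other shifts was not tested. Fitting only the groups compared, the intensity trend, both filters on dim genes, testing every probe set or their mean and an adjusted p under 0.01 left the called members within the same counts.

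The labels number the replicates 1 and 2 and do not say that a number marks a shared day. Deviations from the cell line means correlated across genes between same-numbered arrays, at 0.553 for BJELM with BJEL, 0.481 for BJELM with BJ and 0.448 for BJEL with BJ, a hint from the data and not the design. With the replicate block the called members were 0, 2 and 1 and the called genes 993, 1644 and 544 in that order, so it changed no call of a member. By adjusted p alone the block gave 5, 5 and 4 members, where 31.5%, 39.6% and 24.3% of all genes passed. Those added by the block were FOS (adjusted p = 0.0336), FOSL2 (0.027) and JUNB (0.00104, interval -0.84 to -0.47, within 2-fold) in BJEL against BJ, JUND (0.0191) in BJELM against BJ, and FOSL1 (0.0124) and JUNB (0.0153) in BJELM against BJEL.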

Other observations

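Heat shock genes, another group that stress and serum can induce, held 0 called genes of 10 in each comparison with limma or the methods' t-test. HSPA1A and HSPA1B, also on the list, were not measured. Over all genes 8.79%, 2.68% and 5.18% were called in BJELM against BJ, BJELM against BJEL and BJEL against BJ. In that order 6, 1 and 4 of the 10 had an unadjusted p under 0.05, against 37.3%, 25.4% and 30.6% of all genes. HSPD1, a mitochondrial chaperone, had signals of 12.11 and 12.20 on the arrays labelled BJELM, against 11.74 and 11.69 in BJEL and 11.13 and 11.34 in BJ, a difference of 0.92 ± 0.10 from BJ (adjusted p = 0.00157) and 0.44 ± 0.10 from BJEL (adjusted p = 0.0448). Without BJ replicate 2 the list held 2 rises in BJELM against BJ. HSPE1, its partner, stood at 0.50 ± 0.16 in BJEL against BJ (adjusted p = 0.0879).

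Of 11 genes often used as controls 2 rose in BJELM against BJ, TFRC, the transferrin receptor, by 1.45 ± 0.11 (adjusted p = 0.000522) and HPRT1, of purine salvage, by 1.11 ± 0.20 (adjusted p = 0.00807, under 2-fold without BJ replicate 1 or BJELM replicate 2). TFRC rose by 1.12 ± 0.11 against BJEL too (adjusted p = 0.00446), where B2M, of the class I complex, fell by 1.03 ± 0.13 (adjusted p = 0.00891, under 2-fold without BJEL replicate 1 or BJELM replicate 2). In BJEL against BJ 0 of 11 were called with limma or the methods' t-test. There 6 had an unadjusted p under 0.05, against 30.6% of all genes. HPRT1 stood at 0.90 ± 0.20 (adjusted p = 0.0272) and was called without BJ replicate 2 (1.18). Over all genes 8.79%, 2.68% and 5.18% were called in BJELM against BJ, BJELM against BJEL and BJEL against BJ.

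Among fibroblast markers PDGFRA, a growth factor receptor, fell by 3.38 ± 0.098 in BJELM (adjusted p = 5.74e-05) and fell by 3.57 ± 0.098 in BJEL (adjusted p = 7.81e-05), each against BJ. DCN, the proteoglycan decorin, fell by 4.02 ± 0.47 in BJELM against BJ (adjusted p = 0.00188), S100A4 fell by 3.01 ± 0.23 in BJELM (adjusted p = 0.000485) and fell by 3.12 ± 0.23 in BJEL (adjusted p = 0.001), and FAP fell by 3.45 ± 0.26 in BJEL (adjusted p = 0.00106). FBN1, fibrillin, fell by 1.00 ± 0.13 in BJELM against BJEL (adjusted p = 0.00868), a call not held without BJEL replicate 1, BJEL replicate 2 or BJELM replicate 2. Among markers of other cell types the calls were KRT19 (-1.65 ± 0.37, adjusted p = 0.0191, and 0.102 or 0.0677 without BJ replicate 1 or BJELM replicate 2), CD68 (-1.04 ± 0.092, adjusted p = 0.000751, under 2-fold without BJ replicate 2) and MITF (-1.68 ± 0.11, adjusted p = 0.000313) in BJELM against BJ, and CD68 (-1.08 ± 0.092, adjusted p = 0.0031) in BJELM against BJEL. With limma or the methods' t-test 0 of 8 endothelial markers were called in any comparison. In each comparison 2 had an unadjusted p under 0.05, where between 25.4% and 37.3% of all genes did. Without either BJELM array 1 epithelial marker fell in BJEL against BJ.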
